A study of Mus musculus with 22 samples.

Results

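The livers of 12 female *Adipoq* KO mice were compared, 6 on caloric restriction (CR) and 6 fed *ad libitum* (AL), with 1 bulk RNA-seq library per mouse. They were chosen by the sex and diet in their sample descriptions and matched to the table of normalized counts by library number, and they make up 12 of the 22 livers of the series. Both groups carried the same deletion, the *Adipoq* tm1b allele on a C57BL/6NCrl background, in which Tat-Cre given at the single-cell stage had excised exon 3. Every tissue thus lacked this exon of the gene for the adipocyte hormone adiponectin from the start of life. The paper reports some expression of the earlier exons in white adipose tissue of KO mice, but no adiponectin protein. The mice were housed singly. From 9 to 13 weeks of age AL mice had free access to diet D12450B, and CR mice got a morning ration of diet D10012703 that was 70% of AL intake, a 30% restriction. CR below thus means the amount, the meal hour, and the diet formula together, which cannot be told apart here. Livers were taken at 13 weeks after a fast of about 8 h per the labels, while the methods give a wider range of hours. The time of day at which each liver was taken is not given in the sources used here. WT livers were not analysed here, so the values describe the response to CR in mice without adiponectin and not what its loss changed.

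The liver takes up, stores, and makes fuel according to feeding. Lipogenesis and sterol synthesis are driven by the transcription factors SREBP1 and SREBP2, fatty acid oxidation and ketogenesis in fasting by PPARα, and a circadian clock times much of this. In the clock, BMAL1 (*Arntl*) with CLOCK or NPAS2 switches on the *Per* and *Cry* genes, whose proteins block them. The hour of a scheduled meal can reset the clock of the liver.

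In the 12 libraries, between 34673286 and 39289964 reads fell on genes (median 38547933), and 16925 to 17049 genes had a read. *Adipoq* had 0 reads in the AL livers and 0 to 3 in the CR livers (two-sided exact permutation test, p = 0.182), and since 0 reads allow up to 3 by counting error and the deletion removes exon 3 only, this level does not check the genotype. Normalized counts summed over 9 hepatocyte genes were 5029323 to 7277399 in AL livers and 4716214 to 8126349 in CR livers (exact permutation test, p = 0.935). Some livers stood apart. Of the 1760 genes called below, CR liver 1 lay within the range of the AL livers for 428 and CR liver 6 for 392, against 133 to 279 for the other CR livers. Skeletal muscle markers summed to 11863 in CR liver 3 and 7440 in CR liver 4, against 335 to 1217 in the other 10 livers. Exocrine pancreas markers summed to 38482 in AL liver 1, 25535 in AL liver 6, 17777 in CR liver 3, and 13767 in CR liver 1, against 152 to 4005 in the others, and genes such as *Cpa1* and *Clps* led the first principal component of the 12 livers (31.0% of the variance). On that component the diets did not overlap, with AL livers at -26.1 to -6.96 and CR livers at -4.04 to 34.4. Neither sum passed a test between the diets (two-sided exact permutation tests, p = 0.335 for muscle and p = 0.431 for pancreas). A few livers dominate both sums, so these tests do not show that the diets were balanced. The median log2 fold change was 1.90 over 13 muscle markers tested and -1.76 over 20 pancreas markers tested, with none called. The part of these tissues in the results was not tested. For lists with more than 1 call in a direction, counts without CR liver 1, without the muscle-high livers, and without the pancreas-high livers are given below where they moved by over 1.5 times.

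CR changed 1760 of 15918 genes tested, 11.1%, at a Benjamini-Hochberg adjusted p under 0.05 by limma on the log2 of the normalized count plus 1. Of these, 931 were higher in CR (5.85%) and 829 were lower (5.21%), and the median log2 fold change over all genes tested was -0.00. Most changes were moderate, with 1308 genes under 1 on the log2 scale. At least 2 on that scale was reached by 28 genes that rose and 56 that fell. The values of the 6 CR and 6 AL livers did not overlap at all for 877 genes, 5.51% of those tested, with 483 higher (3.03%) and 394 lower (2.48%), and 756 of these genes were also called. Without CR liver 1 there were 2010 calls, 1555 of them among the 1760. Without both CR livers high in muscle markers 932 genes were called, without the 4 livers high in pancreas markers 916, and without AL liver 4 alone 1167, each with fewer livers in the fit.

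Clock genes were among those that rose most, and major urinary protein (Mup) genes among those that fell most. Taking called genes whose higher group averaged 100 or more normalized counts and whose groups did not overlap, the 10 highest log2 fold changes were those of *Wee1* (3.32), *Krt23* (2.93), *Per3* (2.76), *Dsg1c* (2.56), *Slc2a4* (2.43), *Per2* (2.31), *Cyp2a5* (2.24), *Mthfd1l* (2.13), *Abcb1a* (2.08), and *Cyp2a21-ps* (2.08). *Slc2a4*, which encodes the insulin-responsive glucose transporter GLUT4 of muscle and fat, had 41.9, 44.9, and 59.1 normalized counts in AL livers (lowest, median, and highest) and 74.5, 259, and 752 in CR livers (log2 fold change 2.43 ± 0.48 (SE), limma adjusted p = 0.00328). The groups did not overlap, but the CR livers spread over a wide range. *Mthfd1l*, a mitochondrial enzyme of folate metabolism, went from 18.2, 28.4, and 39.2 to 76.4, 125, and 260 (2.13 ± 0.26, adjusted p = 3.13e-05). *Abcb1a*, a drug efflux pump, went from 68.4, 117, and 172 to 403, 501, and 693 (2.08 ± 0.22, adjusted p = 6.3e-06). For these genes every CR liver lay above every AL liver. *Cyp2a5* and *Cyp2a21-ps* are near-identical neighbours on chromosome 7, so their separate counts are uncertain. Of the 10 lowest values, 9 were Mup genes, and the other was *Gm30959*, a predicted gene with 44.9 to 254 normalized counts in AL livers and 4.03 to 13.8 in CR livers (-3.37 ± 0.51, adjusted p = 0.000305).

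**Figure D1:**
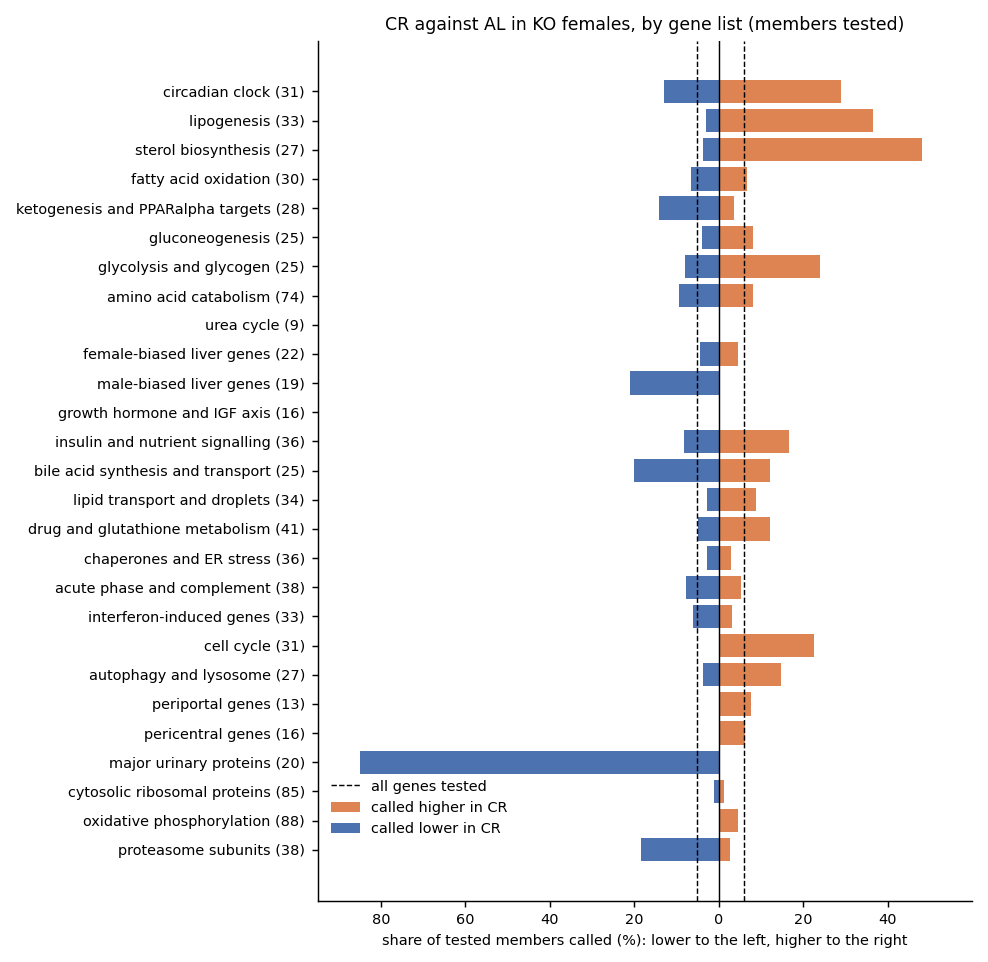
Share of the genes tested in each list that were called higher (bars to the right, %) or lower (bars to the left, %) in CR than in AL livers of KO females, with the number tested in parentheses. Dashed lines mark the shares among all genes tested, 5.85% higher and 5.21% lower, and the clock, sterol, and lipogenesis bars reach furthest to the right and the Mup bar furthest to the left.

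Clock genes changed in both directions. Of 31 clock genes tested, 9 rose and 4 fell (41.9% called, against 11.1% of all genes), with a median log2 fold change of 0.82. This list and those below were chosen with earlier results of these data known. Their shares are therefore descriptive, and no list was tested as a set. The list was made of 5 activators, 10 repressors, 4 output factors, and 12 clock-regulated genes, of which 1, 3, 1, and 4 rose and 3, 0, 0, and 1 fell. Promoters are shown for 3 genes that stand for the activator, repressor, and output arms, because each holds the element through which the clock is known to act on such genes. They are the 300 bases from 250 before the RefSeq start to 50 after it (GRCm38.p6), 5′ to 3′ on the strand of the gene, with the matched motif in capitals. *Arntl* (chr7:113207261-113207560, plus strand) holds a ROR element, TAGGTCA, the site of ROR and REV-ERB receptors. *Per3* (chr4:151044616-151044915, minus strand) holds a D-box, TTANGTAA, 2 times, the site of the output factors DBP and TEF. *Tef* (chr15:81802423-81802722, plus strand) holds an E-box, CACGTG, the site of BMAL1 with its partners.
Arntl: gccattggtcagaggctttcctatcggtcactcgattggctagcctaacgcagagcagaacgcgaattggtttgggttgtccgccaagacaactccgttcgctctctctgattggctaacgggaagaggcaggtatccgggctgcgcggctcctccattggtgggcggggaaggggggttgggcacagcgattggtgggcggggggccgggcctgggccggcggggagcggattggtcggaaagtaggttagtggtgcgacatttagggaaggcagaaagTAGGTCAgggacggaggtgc
Per3: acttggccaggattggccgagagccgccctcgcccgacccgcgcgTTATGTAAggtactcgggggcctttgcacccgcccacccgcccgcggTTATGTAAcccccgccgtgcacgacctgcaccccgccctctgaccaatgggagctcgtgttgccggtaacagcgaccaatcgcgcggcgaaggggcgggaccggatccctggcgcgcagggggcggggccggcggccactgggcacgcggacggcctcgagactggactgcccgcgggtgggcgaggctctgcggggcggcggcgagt
Tef: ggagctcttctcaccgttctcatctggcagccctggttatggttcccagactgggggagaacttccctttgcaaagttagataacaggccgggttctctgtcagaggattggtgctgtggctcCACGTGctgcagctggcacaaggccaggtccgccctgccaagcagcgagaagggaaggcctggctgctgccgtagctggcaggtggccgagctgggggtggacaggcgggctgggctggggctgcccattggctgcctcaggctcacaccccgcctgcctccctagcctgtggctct
Each motif was searched on both strands, and none of these matches overlaps another motif. The E-box was found in 7 of the 25 clock genes with a promoter in the RefSeq table (28.0%, against 8.09% of all 27025 promoters), the ROR element in 3 (2.97% of all), and the D-box in 1 (2.72% of all). These are matches of letters, and binding was not measured.

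Of the 5 activators, 3 fell. *Arntl* (BMAL1, chr7:113207465-113314126 in mm10, GENCODE vM21) had 216, 45.8, 487, 544, 218, and 224 normalized counts in AL livers 1 to 6 and 141, 23.0, 64.6, 18.0, 16.3, and 20.6 in CR livers 1 to 6. CR liver 1 was the highest of its group and AL liver 2 the lowest of its own, so the groups overlapped, with a log2 fold change of -2.73 ± 0.63 (adjusted p = 0.0105). *Npas2* fell from 8.58, 77.5, and 227 to 6.86, 8.59, and 12.9 (-2.80 ± 0.73, adjusted p = 0.0196), and *Clock* from 496, 831, and 948 to 212, 248, and 687 (-1.38 ± 0.27, adjusted p = 0.00306). In each case 1 or more livers of one diet lay within the range of the other.

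Among repressors, *Per3* (chr4:151003652-151044665) rose from 51.0, 259, and 541 normalized counts to 699, 1640, and 2229 (2.76 ± 0.59, adjusted p = 0.00677), and *Per2* (chr1:91415982-91459324) from 93.6, 261, and 405 to 888, 1106, and 1372 (2.31 ± 0.41, adjusted p = 0.00169). *Cry2* rose by 1.14 ± 0.19 (adjusted p = 0.000625). For these 3 genes the diets did not overlap. *Cry1* also did not overlap, at 147 to 230 against 230.2 to 794, but missed the threshold (0.97 ± 0.32, adjusted p = 0.0546), and *Nr1d1* (REV-ERBα) overlapped widely, at 1783 to 5600 against 656 to 2978 (-0.73 ± 0.56, adjusted p = 0.429). Of the output factors, which carry the rhythm to metabolic genes through D-boxes, *Tef* rose from 704, 1923, and 2856 to 4247, 4543, and 6087 (1.60 ± 0.39, adjusted p = 0.0137). *Dbp* had 86.4 to 2443 in AL livers, with AL livers 3 and 4 lowest, and 1206 to 5928 in CR livers, and its log2 fold change of 2.91 ± 1.03 did not pass (adjusted p = 0.0765). Of the clock-regulated genes, *Wee1* (a kinase that delays mitosis), *Por* (the reductase that serves the cytochromes P450), *Tspan4*, and *Nampt* (which makes NAD) rose, by 3.32, 1.30, 1.25, and 1.11, and *Leo1* fell by 0.81. Without CR liver 1 the list had 9 higher and 4 lower calls, without the muscle-high livers 7 and 3, and without the pancreas-high livers 6 and 3.

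**Figure D2:**
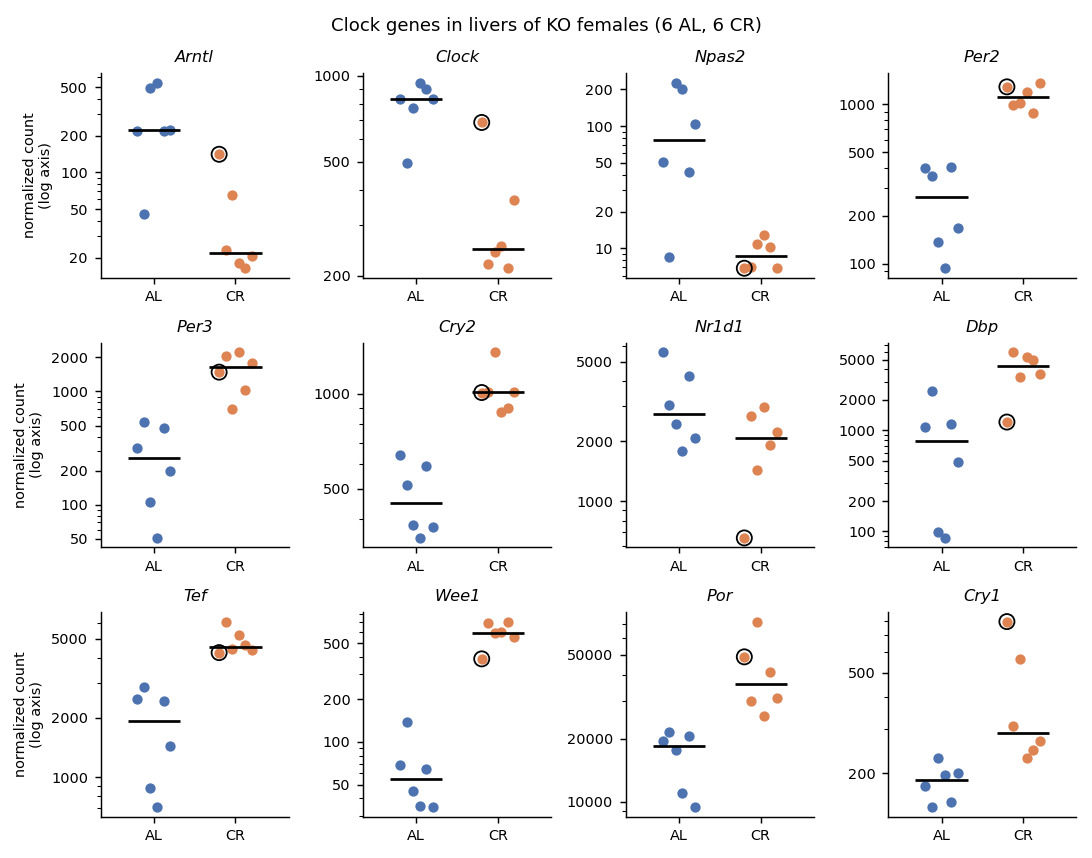
Normalized counts (log axis) of clock genes in each KO female liver, AL and CR side by side, with 1 point per liver, lines at the medians, and CR liver 1 ringed. *Per2* and *Per3* do not overlap between the diets, whereas for *Arntl* CR liver 1, at 141, lies above AL liver 2, at 45.8.

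Of 33 genes of lipogenesis tested, 12 rose in CR livers, 1 fell, and 20 were not called (39.4% called), with a median of 0.56. *Srebf1*, which encodes SREBP1, had 1326, 1836, and 3988 normalized counts in AL livers and 3230, 8058, and 16215 in CR livers (1.89 ± 0.35, adjusted p = 0.00181). Further regulators that rose were *Thrsp* (1.86 ± 0.35, adjusted p = 0.00242) and *Mid1ip1* (1.73 ± 0.30, adjusted p = 0.00106), whose products stimulate acetyl-CoA carboxylase, whereas *Mlxipl*, which encodes the glucose-sensing factor ChREBP, had a value of -0.37 (adjusted p = 0.311). All 3 enzymes that make malonyl-CoA and palmitate rose. *Fasn* (fatty acid synthase, chr11:120805846-120824547) had 11542, 5204, 4906, 4297, 5352, and 7984 in AL livers 1 to 6 and 6967, 61642, 21916, 41861, 17434, and 19776 in CR livers 1 to 6 (1.88 ± 0.45, adjusted p = 0.0128). CR liver 1 lay within the AL range and the other 5 CR livers lay above it. *Acaca* and *Acacb*, the carboxylases, rose by 1.53 ± 0.32 and 1.64 ± 0.28 (adjusted p = 0.00484 and 0.001). *Acly*, which supplies cytosolic acetyl-CoA, rose from 1417, 1814, and 2867 to 2978, 6705, and 18449 (1.84 ± 0.32, adjusted p = 0.00136), without overlap.

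Of 9 elongases and desaturases, *Elovl6*, which lengthens palmitate, rose from 932, 1495, and 2781 to 2824, 5162, and 18257 (2.04 ± 0.48, adjusted p = 0.0114), and *Fads2* and *Scd2* rose by 1.34 and 1.03. *Scd1*, by far the most abundant desaturase, did not pass, at 305927 to 469818 in AL livers and 339039 to 805815 in CR livers (0.39 ± 0.23, adjusted p = 0.276). *Elovl3* was low, at 45.8 to 149 against 0 to 50.1, with a value of -2.22 (adjusted p = 0.0693). Among genes of glycerolipid assembly, *Dgat2* and *Gpam* rose by 0.62 and 0.58, and *Gpd1*, which makes glycerol 3-phosphate from dihydroxyacetone phosphate, was the 1 gene of the list that fell (-1.65 ± 0.21, adjusted p = 3.13e-05). Without CR liver 1 there were 15 higher and 2 lower calls in the list, without the muscle-high livers 10 and 1, and without the pancreas-high livers 12 and 1.

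Of 27 genes of sterol synthesis and uptake tested, 13 rose, 1 fell, and 13 were not called (51.9% called), with a median of 1.16. CR liver 1 lay within the AL range for 10 of the 14 called genes, against 0 to 2 for each of the others. Without it 22 rose and 1 fell. Without the pancreas-high livers 20 rose, and without the muscle-high livers, a group that retains CR liver 1, 6 rose. Of the mevalonate steps, 3 of 8 rose, among them *Mvk* (mevalonate kinase) from 118, 175, and 287 normalized counts to 152, 499.9, and 530.1 (1.23 ± 0.34, adjusted p = 0.0232) and *Acat2* by 0.51. *Idi1* had 230 to 911 in AL livers and 316 to 2407 in CR livers, and its value of 1.46 did not pass (adjusted p = 0.0982).

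Of 12 genes from squalene to cholesterol, 5 rose. *Lss* (lanosterol synthase) went from 156, 306, and 443 to 467, 960, and 1745 (1.77 ± 0.28, adjusted p = 0.000531), with no overlap, and *Fdft1* and *Sc5d* rose by 1.29 and 0.71. *Dhcr7*, which makes cholesterol in the last step of one branch, rose from 669, 807, and 947 to 1008, 1948, and 2749 (adjusted p = 0.0129). *Sqle* did not pass (1.29 ± 0.56, adjusted p = 0.145). All 3 genes of the uptake group rose. *Stard4*, a cholesterol carrier, rose from 302, 742, and 1042 to 568, 1691, and 2692 (1.10 ± 0.31, adjusted p = 0.0299), with overlap between the diets.

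The regulators of the sterol pathway went both ways. *Insig1*, a target of SREBP that retains it in the endoplasmic reticulum, rose from 802, 2181, and 4346 to 3235, 4466, and 11777 (1.32 ± 0.34, adjusted p = 0.0185), and *Srebf2* rose by 0.44. *Insig2* (chr1:121304353-121332589), which does the same work and is known to fall with insulin, had 5915, 4837, 11154, 9436, 10235, and 7107 in AL livers 1 to 6 and 4256, 774, 1126, 1102, 1093, and 2525 in CR livers 1 to 6 (-2.37 ± 0.34, adjusted p = 0.000277). All 6 CR livers were below the lowest AL liver, and CR liver 1 came closest to it.

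**Figure D3:**
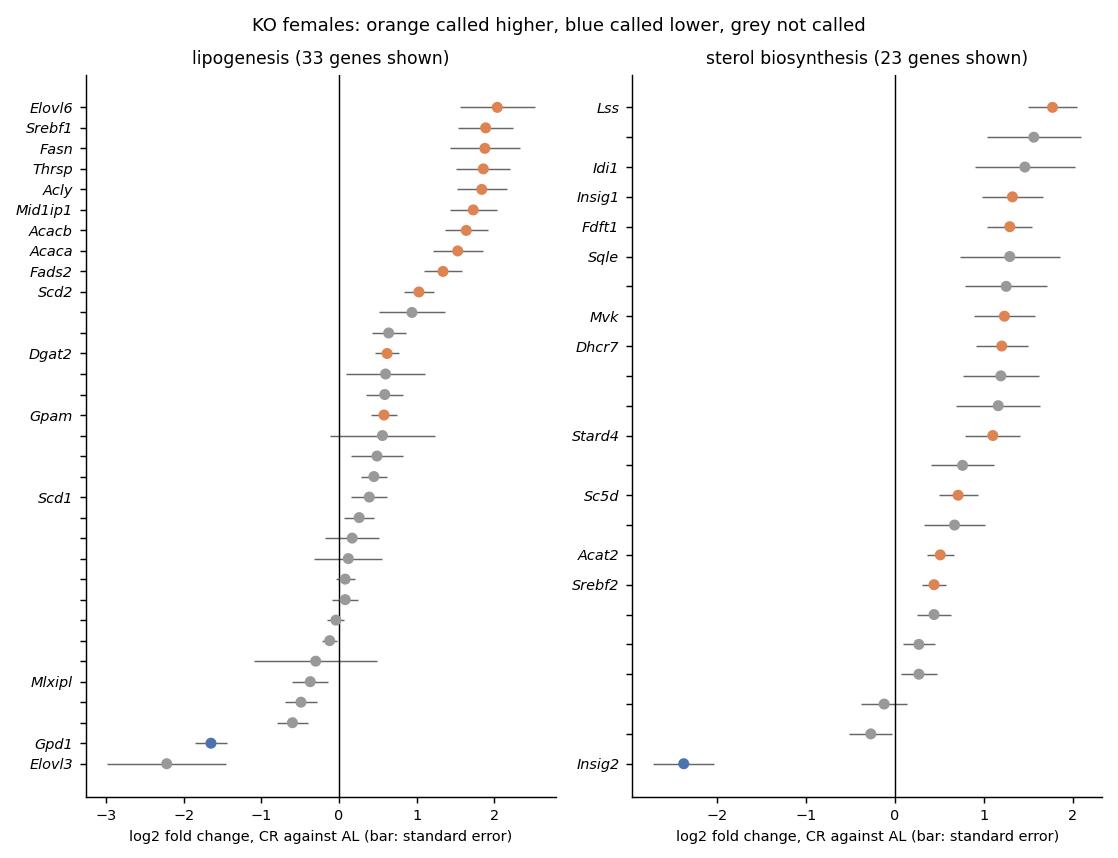
Log2 fold change of CR against AL in KO females (x axis) for genes of lipogenesis (33) and sterol biosynthesis (23 shown), with bars of 1 standard error and colours for called higher, called lower, and not called. The genes described in the text are labelled. Most points lie to the right of 0, and *Gpd1* (-1.65) and *Insig2* (-2.37) are the genes called lower.

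Of 30 genes of fatty acid oxidation, 2 rose and 2 fell (13.3%, near the share among all genes), with a median of 0.00. *Echs1*, a hydratase of the mitochondrial pathway, rose by 0.35, while *Crot*, which passes peroxisomal products to carnitine, fell from 12247, 16231, and 21686 to 3605, 6096, and 8533 (-1.51 ± 0.21, adjusted p = 0.000106) and *Etfdh* by 0.73. *Cpt1a*, named after its values were seen, had 12053 to 14749 in AL livers and 15556 to 26437 in CR livers, without overlap (0.55 ± 0.18, adjusted p = 0.0509). Without CR liver 1, 4 rose and 4 fell, and without the muscle-high or the pancreas-high livers none rose and 2 fell. *Ppara* itself had a value of 0.46 (adjusted p = 0.0521). *Cpt1a* passed under 10 of 27 alternatives (adjusted p from 0.0155 to 0.273) and *Ppara* under 6 (0.026 to 0.289).

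Of 28 genes of ketogenesis and other PPARα targets, 1 rose and 4 fell (17.9%), with a median of -0.14. *Slc16a1*, a carrier of ketone bodies and lactate, fell from 1060, 1398, and 1825 to 582, 718, and 893 (-0.99 ± 0.23, adjusted p = 0.00791), without overlap. *Fgf21*, a hormone that the liver releases in fasting, fell from 133, 234, and 489 to 46.2, 86.3, and 158 (-1.45 ± 0.38, adjusted p = 0.019). *Cyp4a32* fell by 0.84 and *Acot4*, a thioesterase, rose by 0.80. The omega-oxidation genes *Cyp4a10* and *Cyp4a14* had values of -1.11 and -1.51 and did not pass (adjusted p = 0.0919 and 0.106). Without the muscle-high or the pancreas-high livers, none of the list rose and 2 fell. By DESeq2, 4 rose and 5 fell, and with the 12 females fitted alone 4 rose and 6 fell.

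Glycogen genes changed in both directions. Of 9 tested, 3 rose and 1 fell, and of 16 glycolytic genes 3 rose and 1 fell (32% of the 25, median 0.37). *Gys2* (liver glycogen synthase, chr6:142422613-142473109) rose from 4175, 5706, 3249, 3882, 4617, and 3706 in AL livers 1 to 6 to 13634, 17704, 21224, 11762, 18489, and 10889 in CR livers 1 to 6 (1.87 ± 0.21, adjusted p = 1.56e-05), so every CR liver had more than any AL liver. *Gbe1*, the branching enzyme, rose by 0.86. *Ppp1r3c*, a subunit that brings a phosphatase to glycogen, fell from 938, 1509, and 1661 to 192, 316, and 1011 (-2.02 ± 0.36, adjusted p = 0.00156), with CR liver 1 highest among the CR livers. *Gpi1* and *Pfkl* rose by 0.69 and 0.50, *Slc2a2*, the hepatic glucose transporter, rose by 0.64, and *Ldha* fell by 0.71.

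Of 25 genes of gluconeogenesis tested, 2 rose and 1 fell (12%, near the share among all genes), with a median of 0.06. *Pck2* and *Mdh2*, mitochondrial enzymes, rose by 0.55 and 0.48, and *Gk*, which takes up glycerol by phosphorylating it, fell by 0.53. *Pck1*, the main cytosolic enzyme, overlapped, at 78777 to 121359 in AL livers and 68642 to 194212 in CR livers (0.06, adjusted p = 0.905), and *G6pc*, which releases glucose, had a value of -0.90 (adjusted p = 0.0566). *Got1*, *Sds*, and *Gpd2* did not pass, with values of 0.57, 0.15, and -0.40 (adjusted p = 0.177, 0.732, and 0.0872). *Fbp2* was under the minimum, at 3 to 22 reads in CR livers and 6 to 13 in AL livers (exact permutation test, p = 0.922). Without the pancreas-high livers none of the list rose.

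Of 74 genes of amino acid catabolism, 6 rose and 7 fell (17.6%, against 11.1% of all genes), with a median of 0.17. The counts per pathway were small. In sulfur and methyl metabolism 3 of 11 fell and none rose, where 5.21% of all genes fell. *Bhmt*, which passes a methyl group from betaine to homocysteine, had 36338, 82606, and 165464 normalized counts in AL livers and 15127, 25972, and 48110 in CR livers (-1.57 ± 0.43, adjusted p = 0.0248), and *Csad* and *Cdo1*, which lead from cysteine to taurine, fell by 1.06 and 0.73. The call was lost under 8 of 27 alternatives for *Bhmt*, 9 for *Csad*, and none for *Cdo1*. In serine, glycine, and threonine metabolism 2 of 9 fell, both of the glycine cleavage system, *Gldc* by 0.95 and *Amt* from 908, 1027, and 1241 to 410, 581, and 705 (-0.84 ± 0.13, adjusted p = 0.000422). Among the others, *Asrgl1*, *Gls2* (liver glutaminase), *Aldh4a1*, *Pcca*, and *Mccc1* rose by 0.32 to 0.72, and *Kynu*, of tryptophan breakdown, and *Acad8*, of valine breakdown, fell by 0.75 and 0.35. *Tat*, an enzyme of tyrosine breakdown, overlapped widely, at 28748 to 110009 against 26418 to 127717 (-0.41, adjusted p = 0.582). Without the pancreas-high livers 2 rose and 5 fell, and without the muscle-high livers 5 rose and 4 fell. None of 9 urea cycle genes was called, with a median of 0.20.

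Of 10 genes of bile acid synthesis tested, 4 fell, 6 were not called, and none rose, and of 11 transporters 3 rose and 1 fell (32% of the 25 genes of the list). *Hsd3b7*, an early step of both synthetic routes, had 9634, 12783, and 14084 normalized counts in AL livers and 3079, 4120, and 5881 in CR livers (-1.53 ± 0.19, adjusted p = 3.13e-05). *Cyp8b1*, which makes cholic acid, fell from 6452, 10998, and 18326 to 3048, 4251, and 5322 (-1.44 ± 0.40, adjusted p = 0.0261). For both the diets did not overlap. *Acox2* and *Baat*, which shorten and conjugate the side chain, fell by 0.72 each. *Abcg5* and *Abcg8*, which together pass sterols into bile, rose by 0.55 and 0.74, and *Abcc4*, an exporter to blood, rose from 47.9, 63.7, and 85.1 to 86.2, 182, and 276 (1.37 ± 0.23, adjusted p = 0.000574). *Slco1a1*, an uptake carrier that is male-biased, fell from 307, 1038, and 1859 to 19.4, 36.5, and 980 (-3.99 ± 0.86, adjusted p = 0.00729), where only CR liver 6, at 980, lay within the AL range. Without the muscle-high livers 3 of the list fell instead of 5.

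In lipid transport and droplets 3 of 34 genes rose and 1 fell (11.8%, near the share among all genes, median 0.09). *Lipe* (hormone-sensitive lipase), *Fitm2*, and *Abca1* rose by 0.64, 0.59, and 0.45. The call was lost under 3 of 27 alternatives for *Lipe*, 14 for *Fitm2*, and 19 for *Abca1*. *Plin5*, a droplet coat protein, fell from 1920, 2440, and 3636 to 418, 1162, and 3093 (-1.21 ± 0.32, adjusted p = 0.019), with CR liver 1 at 3093. Without the muscle-high livers 1 of the list rose and without the pancreas-high livers none. In drug and glutathione metabolism 5 of 41 rose and 2 fell (17.1%, median 0.05). *Gstm3* rose from 494, 747, and 1093 to 731, 2802, and 5235 (1.73 ± 0.35, adjusted p = 0.00394), and *Gsta1* from 31.4, 40.7, and 68.9 to 55.9, 256, and 966 (2.23 ± 0.56, adjusted p = 0.0161). These glutathione transferases belong to families of like sequence, so their separate counts are uncertain. *Cyp3a25* and *Ahr*, the receptor for dioxin-like compounds, fell by 0.70 and 0.79. Without the pancreas-high livers 2 of the list rose and 1 fell, and without the muscle-high livers 1 fell.

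Mup genes encode pheromone carriers that the liver secretes into urine, and they depend on pulses of growth hormone. Of 21 listed, 20 were tested and 17 fell (85.0%, against 5.21% of all genes called lower), with a median of -3.11. All lie in a cluster on chromosome 4 and belong to a family of like sequence, in which some members are more alike than others. Reads can be split among the most alike, so the genes are not independent of each other. The promoters of the lowest of the genes without overlap (*Mup15*, chr4:61439655-61439954), of a member that fell less (*Mup3*, chr4:62087268-62087567), and of a member that was not called (*Mup4*, chr4:59960618-59960917) are shown so that the promoters of members with different changes can be compared. They are given as above, all on the minus strand, with TATATAA in capitals.
Mup15: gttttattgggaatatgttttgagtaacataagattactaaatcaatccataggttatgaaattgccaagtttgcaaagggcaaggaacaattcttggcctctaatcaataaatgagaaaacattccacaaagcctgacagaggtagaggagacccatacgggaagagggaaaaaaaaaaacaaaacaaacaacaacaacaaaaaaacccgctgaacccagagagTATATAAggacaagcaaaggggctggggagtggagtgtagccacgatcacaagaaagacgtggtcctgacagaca
Mup3: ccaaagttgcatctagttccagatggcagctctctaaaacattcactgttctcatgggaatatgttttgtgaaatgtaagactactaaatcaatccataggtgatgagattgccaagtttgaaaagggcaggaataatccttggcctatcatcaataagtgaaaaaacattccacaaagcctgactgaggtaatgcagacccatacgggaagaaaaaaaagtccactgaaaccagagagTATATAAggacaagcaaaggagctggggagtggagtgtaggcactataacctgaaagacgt
Mup4: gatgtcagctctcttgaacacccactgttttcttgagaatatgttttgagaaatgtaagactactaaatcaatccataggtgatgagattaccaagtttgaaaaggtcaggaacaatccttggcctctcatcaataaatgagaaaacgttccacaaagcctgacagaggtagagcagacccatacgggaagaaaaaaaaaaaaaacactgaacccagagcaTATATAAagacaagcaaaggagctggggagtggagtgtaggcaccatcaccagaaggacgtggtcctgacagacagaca
This motif was searched on both strands and was found in 13 of the 13 Mup promoters in the RefSeq table and in 3.84% of all promoters. Over the 78 pairs of these 13 promoters, 69.7% to 99.0% of bases were identical (median 82.8%).

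*Mup15* had 2692, 13427, and 16692 normalized counts in AL livers and 25.5, 374, and 2571 in CR livers (-4.78 ± 1.00, adjusted p = 0.00617). *Mup17* had 1283, 7223, and 9043 against 12.2, 125, and 1585 (-5.09 ± 1.00, adjusted p = 0.0039), and *Mup13*, one of the most abundant, 44939, 119120, and 166995 against 1623, 11911, and 34163 (-3.22 ± 0.68, adjusted p = 0.00581). CR liver 6 was the highest CR liver for *Mup15* and *Mup17*, and it lay within the AL range for 6 of the 17 called genes. *Mup3*, named after its values were seen like the next 3, fell from 131128, 235414, and 318974 to 33204, 73830, and 139467 (-1.54 ± 0.30, adjusted p = 0.00262), and *Mup20*, which encodes the pheromone darcin, from 3239, 5414, and 15882 to 1600, 2009, and 3973 (-1.35 ± 0.41, adjusted p = 0.039). These fell less than *Mup15* and overlapped between the diets. *Mup21* did not pass (-1.46, adjusted p = 0.0517), and *Mup4* had 0 to 4.78 in AL livers and 0 to 6.87 in CR livers, near the limit that 0 reads allow (0.65, adjusted p = 0.548). Without the pancreas-high livers, 11 Mup genes fell.

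**Figure D4:**
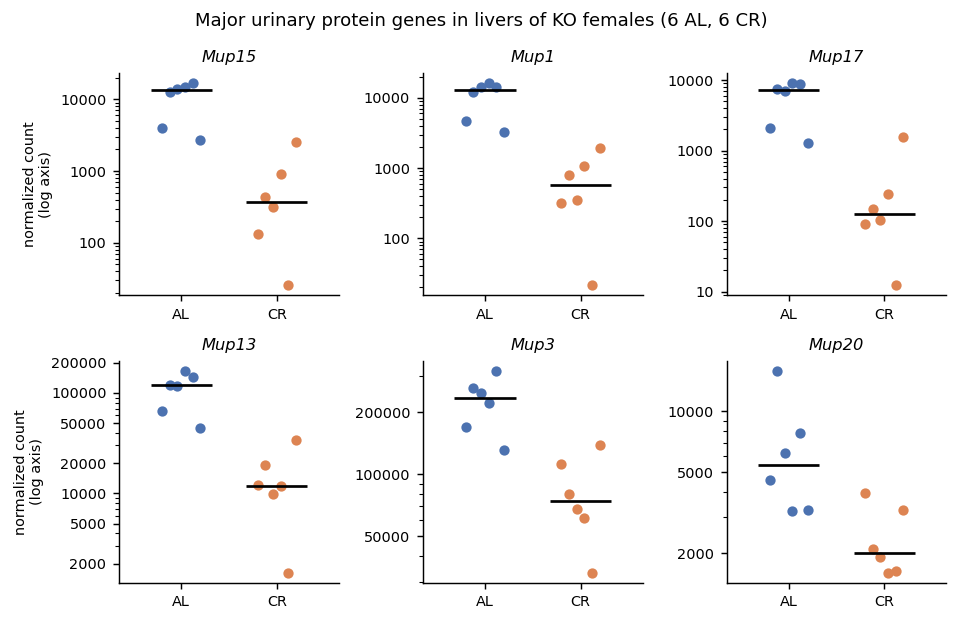
Normalized counts (log axis) of 6 Mup genes in each KO female liver by diet, with 1 point per liver and lines at the medians. *Mup15* and *Mup13* do not overlap between the diets, and *Mup3* and *Mup20* do.

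The change with CR was compared with that in KO males, 5 AL and 4 CR livers, in the same fit by the interaction of sex and diet. Of 15918 genes 55 passed (0.346%), with 26 higher in females (0.163%) and 29 lower (0.182%), whereas CR changed 1597 genes in males (10%). Most female changes named above were thus not shown to differ from those in males, which is no evidence that they were equal. The side-by-side medians were 0.82 in females and 0.79 in males for the clock, 0.56 and 0.72 for lipogenesis, 1.16 and 1.34 for sterol synthesis, and -3.11 and -5.00 for Mup genes.

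Genes known to be sex-biased were among the largest differences, and 5 of 22 female-biased and 6 of 19 male-biased genes passed the interaction test. In females *Cyp2b9*, a cytochrome P450 that is female-biased, had 9703 to 14984 normalized counts in CR livers and 10951 to 15918 in AL livers, and it did not pass (-0.24 ± 0.40, adjusted p = 0.734), whereas it rose by 7.05 in males (interaction -7.29 ± 0.61, adjusted p = 4.35e-06). *Cux2*, a female-biased repressor, had 367 to 1449 in AL females and 1051 to 3051 in CR females (1.40 ± 0.51, adjusted p = 0.0851) and rose by 5.36 in males (interaction -3.96 ± 0.79, adjusted p = 0.0314). *Slc22a26*, *Slc22a27*, and *Gm40794* had interaction values of -4.55, -4.09, and -4.02. In the other direction, *Cyp4a12a* and *Cyp4a12b*, male-biased neighbours of near-identical sequence, were low in females, at 2.87 to 135 against 3.06 to 16.3 for *Cyp4a12a*, and fell by 7.18 and 6.84 in males (interaction 6.37 and 6.25, adjusted p = 0.019 and 0.0162). *Moxd1* and *Pitx3* had at most 3.06 normalized counts in any female, so that no fall could have been seen there, and fell in males (interaction 7.02 and 4.97). *Mup-ps19* fell in both sexes, by 1.33 in females and 5.32 in males (interaction 3.99, adjusted p = 0.0058), as did *Mup20* (-1.35 and -5.31, adjusted p = 0.0058).

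Within the female livers, of 22 female-biased genes 1 rose and 1 fell (9.09%, near the share among all genes), with a median of 0.10. *Cyp2a4* rose by 1.47 ± 0.37, and *Cyp3a44* fell from 1625, 2885, and 7562 to 45.9, 326, and 2151 (-3.18 ± 0.77, adjusted p = 0.0143). Of 19 male-biased genes 4 fell (21.1%), with a median of -0.33. *Hsd3b5* fell from 23.9, 107, and 593 to 1.97, 7.01, and 125 (-3.53 ± 0.94, adjusted p = 0.0229), *Serpina12*, which encodes vaspin, by 1.83, and *Susd4* by 0.88. CR liver 6 lay within the AL range for all 4. Without the muscle-high or the pancreas-high livers 1 gene of the list fell. None of 16 genes of the growth hormone and IGF axis was called (median 0.12).

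Of 36 genes of insulin and nutrient signalling, 6 rose and 3 fell (25%), with a median of 0.12. *Irs2*, an insulin receptor substrate, rose from 581, 855, and 1257 to 1142, 1393, and 2809 (0.87 ± 0.24, adjusted p = 0.0219), *Txnip* by 1.06, *Akt2* by 0.43, and *Cdh13*, which encodes the adiponectin-binding T-cadherin, by 0.60. *Prkab1* and *Prkaa2*, subunits of AMPK, rose by 0.52 and 0.44, and *Appl1*, an adaptor of adiponectin receptors, fell by 0.62. *Cdkn1a* (p21, chr17:29090976-29100727) had 5624, 2058, 3470, 3340, 2420, and 3206 normalized counts in AL livers 1 to 6 and 2788, 62.9, 169, 128, 432, and 242 in CR livers 1 to 6 (-3.54 ± 0.71, adjusted p = 0.00431). CR liver 1 was within the AL range and the other 5 CR livers were far below it. *Gadd45b* fell by 1.45. Without the muscle-high livers 2 of the list rose and 1 fell, without the pancreas-high livers 3 rose, and without CR liver 1 5 fell.

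All calls in the cell cycle list were higher. *Cdkn1a* and *Gadd45b*, which fell, were counted in the list of insulin and nutrient signalling instead. Of 31 cell cycle genes tested, 7 rose (22.6%), with a median of 0.53. They were 3 of 9 G1 genes and 4 of 11 S phase genes, and none of 11 mitotic genes passed. *Ccnd1* (cyclin D1) rose from 472, 667, and 1006 to 765, 1591, and 4074 (1.27 ± 0.33, adjusted p = 0.0188). *Ccne1* (cyclin E1), a low gene named after its values were seen, had 2.08, 9.06, and 16.3 in AL livers and 29.6, 41.4, and 77.5 in CR livers, without overlap (2.37 ± 0.40, adjusted p = 0.000701). *Mcm5* and *Mcm6*, of the replicative helicase, rose by 1.37 and 1.09, and CR liver 5 had the highest value of both. Without CR liver 1, 4 of the list rose, and without the pancreas-high livers 3.

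Of 38 proteasome subunits tested, 7 fell, 1 rose, and 30 were not called (21.1% called), with a median of -0.15. *Psmd11* fell from 2072, 2401, and 2977 to 1464, 1622, and 1816 (-0.59 ± 0.10, adjusted p = 0.000699), *Psmd1* by 0.49, and *Psma5* by 0.42, and for these 3 the diets did not overlap. *Psmb10*, an immunoproteasome subunit, rose by 0.74. By contrast, 2 of 85 ribosomal protein genes were called (2.35%), *Rpl3* at 0.55 and *Rpl7l1* at -0.33. Of 88 genes of oxidative phosphorylation 4 rose (4.55%, median 0.09), *Uqcrc1* by 0.54, *Atp5b* by 0.40, and *Sdha* by 0.37 among them. Without the muscle-high or the pancreas-high livers none of those 4 passed.

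Of 36 chaperone and ER stress genes 1 rose and 1 fell (5.56%, below the 11.1% of all genes). *Atf3* rose by 0.92, and *Atf5* fell from 13833, 15496, and 23451 to 4264, 8734, and 9354 (-1.11 ± 0.21, adjusted p = 0.00158). Of 38 acute phase and complement genes 2 rose and 3 fell (13.2%, near the share among all genes), *Il1rn* by 1.22 and *Masp1* by 0.38 upward, and *Mbl1*, *Crp*, and *Lbp* by 0.76, 0.52, and 0.52 downward. Without the muscle-high livers 1 gene of the list rose and 1 fell, and without the pancreas-high livers 1 rose. Of 33 interferon-induced genes *Ifit1* and *Rsad2* fell by 1.07 and 1.08 and *Psmb10* rose (9.09% called, near the share among all genes). Of the list, 1 fell without CR liver 1, and none without the muscle-high or the pancreas-high livers. Of 27 genes of autophagy and lysosomes (18.5% called), 4 of 12 lysosomal genes rose (*Tfeb* by 0.59 and *Mcoln1* by 0.47 among them), while *Atg5* fell by 0.37 among 15 autophagy genes. Without the muscle-high livers 2 lysosome or autophagy genes rose and without the pancreas-high livers 1. One of 13 periportal genes (7.69%) and 1 of 16 pericentral genes (6.25%) rose, where 5.85% of all genes rose.

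Endothelial markers differed between the diets. Normalized counts summed over 10 endothelial genes were 10348, 12394, and 13328 in AL livers and 13392, 14008, and 16187 in CR livers, so that every CR liver lay above every AL liver (two-sided exact permutation test, p = 0.00216). Of these 10 genes 4 were called higher and the others were not called, with a median log2 fold change of 0.28. The 4 were *Kdr*, *Gpr182*, *Pecam1*, and *Stab2*, named after their values were seen, which rose by 0.65, 0.54, 0.49, and 0.39. The call of *Stab2* was lost under 13 of 27 alternatives. More endothelial cells and more RNA per cell cannot be told apart in bulk tissue, nor can fewer cells of any type and less RNA per cell in the values above. Of 10 stellate cell markers 4 rose, but their sum did not pass (7924 to 11938 in CR against 8027 to 10988 in AL, p = 0.604 by exact permutation). The sums for Kupffer cells (p = 0.827), lymphocytes (p = 0.509), neutrophils (p = 0.113), cholangiocytes (p = 0.201), adipose tissue (p = 0.238), and small intestine (p = 0.775) did not pass in exact permutation tests either.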

How the data were processed

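Bulk RNA-seq of 21 *Adipoq* KO livers with a column in the deposited table was used, 12 of them from females. Per the labels and methods, the authors trimmed reads with Trim Galore, aligned them with STAR 2.7.10a to mm10, took gene counts from featureCounts (Subread 1.5.2) with UCSC annotation, and divided each liver's counts by 1 DESeq2 1.44.0 size factor. The deposited signal values are these normalized counts for 17107 genes. Whole reads were recovered from them within 1e-06 (largest distance 1.86e-08). A further 23 of 44 columns were not used. Of 5 KO CR males, 1 has no column that its labels name and was left out. Library numbers served to match columns and, in 1 alternative, as a covariate.

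Values were fitted as log2(normalized count + 1) with limma 3.58.1 (eBayes, trend and robust, R 4.3.3) over 4 sex-diet groups, for 15918 genes (93.05%) with at least 10 in at least 5 livers. Sharing 1 estimate of spread, the fit gave CR against AL in females and males and their interaction, with calls where the Benjamini-Hochberg adjusted p was below 0.05. Mice were the replicates. Sums and genes under the minimum had two-sided exact permutation tests. The genes named were the 10 highest and 10 lowest called with a mean of at least 100 and no overlap, up to 3 called in each direction per list, further called members for roles, the 5 highest and lowest interactions, 12 fixed genes, and others chosen after their values were seen. Not all of those others are marked so in the text, such as the uncalled list members *Pck1* and *Dbp*. The members and lists were chosen with earlier results of these data known. Some genes that this rule names are not reported here. Promoters are RefSeq's, and coordinates GENCODE vM21 (mm10).

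On simulated data for CR against AL in females (15793 genes), 38% of 1.5-fold, 82% of 2-fold, and 98% of 4-fold changes were called, and 0.0577% of unchanged genes. Counts were drawn independently for each gene, without livers that stood apart, and 50 genes were changed at each fold. Far fewer genes were thus changed than were called in the data, so these rates need not hold for the real calls. Alternatives were edgeR 4.0.16 and DESeq2 1.42.0 on recovered reads, TMM, median-ratio and quantile scaling, pseudocounts of 0.5 and 5, no minimum or one of 50, females only, the range of library numbers, the replicate block, the study's rule (unadjusted p under 0.05 and a fold change above 1.2), and leaving out livers. Leaving out the 4 livers high in pancreas markers was added after the data were seen. Same-numbered AL and CR livers, from 1 to 6, deviated together with correlations of 0.2584, 0.1271, 0.1765, 0.3159, 0.0055, and -0.0757. Differently numbered ones had -0.2229 to 0.2907. The labels do not say that the numbers pair the livers, and whether they do was not tested. The block was therefore run as an alternative only.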

Additional observations from a re-analysis of the deposited data

Results flagged for a closer look

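Gaps within groups of 6 livers were tested by Dixon's ratio against 0.625, and 40 of 358 groups had one. Chance gives about 1 in 20 for values with a normal spread. The counts were not logged and need not follow one, so that rate is no firm standard here. Many flags fell on the same few livers, and no explanation was tested. In CR liver 1, *Clock* (687), *Ppp1r3c* (1011), *Txnip* (8061), *Cdkn1a* (2788), *Gadd45b* (188), *Plin5* (3093), and *Crp* (10820) had normalized counts far above the other CR livers, and *Atf5* (4264), *Psma5* (697), and *Mvk* (152) far below them. In CR liver 6, *Mup15* (2571), *Mup9* (3653), *Mup17* (1585), *Slco1a1* (980), and *Hsd3b5* (125) were far above the others, and its total of 34673286 reads on genes was the lowest. In CR liver 2, *Insig1* (11777) and *Acad8* (1110) were highest. In CR liver 3, *Tfeb* (599.7), *Rpl3* (11183), *Sdha* (14550), *Cry2* (1358), *Tspan4* (2235), and *Pitx3* (1.35) were highest. In CR liver 4 these were *Cyp4a12a* (16.3) and *Fbp2* (18.9), and in CR liver 5 *Mcm5* (428) and *Mcm6* (641).

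Among AL livers, liver 2 had the highest normalized counts of *Wee1* (138), *Serpina12* (383), *Cyp4a12a* (135), *Cyp4a12b* (118), *Mup-ps19* (5681), and *Mup20* (15882). *Fgf21* was highest in liver 3 (489), *Pck2* in liver 1 (91.8), *Masp1* in liver 6 (3010), and the skeletal muscle marker sum in liver 4 (1217). *Mbl1* was lowest in liver 1 (2566) and *Cyp4a10* in liver 6 (40409).

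The change with CR differed between the sexes by limma's interaction test for *Moxd1* (7.02), *Cyp4a12a* (6.37), *Cyp4a12b* (6.25), *Pitx3* (4.97), *Mup-ps19* (3.99), *Mup20* (3.96), and *Mup21* (3.42), with higher log2 fold changes in females, and for *Cyp2b9* (-7.29), *Slc22a26* (-4.55), *Slc22a27* (-4.09), *Gm40794* (-4.02), and *Cux2* (-3.96), with lower ones.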

How the results depend on the processing

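Of 134 named genes called in females, 53 were called in the same direction under every alternative run, 95 without each single liver, and none reversed. This count leaves out some called members given for their role, such as *Pfkl* and *Susd4*. The 1760 calls in females became 1619 with the replicate block, and the block left 1 Mup gene called lower (from 17) and 7 sterol and 8 lipogenesis genes higher (from 13 and 12). They became 4118 under the study's rule, 932 without the 2 muscle-high livers, 916 without the 4 pancreas-high livers, and 1167 to 2010 without single livers (lowest without AL liver 4, highest without CR liver 1). The 55 interaction calls became 179 by DESeq2, 1893 under the study's rule, 18 with the block, 24 without AL livers 1 and 2, 35 without the muscle-high livers, 15 without the pancreas-high livers, and 34 to 69 without single livers (34 or 35 without AL liver 1, 4, 5, or 6). Fits with fewer livers have less power by construction, and the cause of the other moves was not tested. Values that reversed were small and not called, those of *Sds* without AL liver 4 (-0.00, and up to 0.24 without AL liver 2), *Hnf4a* without AL liver 1 (0.01, and down to -0.15 without AL liver 4), and *Pck1* without the muscle-high livers (-0.01), the pancreas-high livers (-0.22), AL liver 4 (-0.01), or CR liver 3 (-0.12, and up to 0.18 without CR liver 4). Other scalings moved the median of all genes by at most 0.01. Low genes such as *Mup4*, *Moxd1*, and *Pitx3* are limited by depth in females.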
